A study of Mus musculus with 8 samples.

Results

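The 45 genes described here are markers of cell proliferation: 19 S-phase genes, which are used for DNA replication or for entry into it, and 26 mitotic genes, which are used from G2 to the end of division. They were taken from a list of gene symbols and found in the deposited table by Ensembl gene identifier. All 45 were found among the 46517 genes of the table, and all 45 were among the 16469 genes with enough reads to be tested. The rule is a list of names and no level or fold change, but the list was drawn up with earlier results of these data known.

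In a dividing cell, cyclins and their kinases release the E2F transcription factors, which switch on the genes for origin licensing, nucleotide supply and the replication fork. Later in the same cycle the MuvB core, a part shared with the repressor complex DREAM, acts with B-MYB and FOXM1. Together they switch on a second wave of genes for chromosome condensation, the spindle, the checkpoint and cytokinesis. Levels of both kinds of transcript in a tissue are therefore commonly read as a measure of cycling cells, and the balance between them as a measure of the share of those cells in each phase. Before birth the Wolffian duct elongates and coils into the epididymis, and both its epithelium and the mesenchyme around it contain dividing cells.

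The study compared ducts of E18.5 mouse embryos with and without Ptk7, a receptor-like protein of planar cell polarity signalling, by bulk RNA sequencing of 8 libraries. The 4 control libraries carried 1 wild-type and 1 floxed Ptk7 allele (Ptk7 +/flox), and the 4 libraries labelled Ptk7 cKO carried the disrupted allele Xst87 over the floxed one (Ptk7 Xst87/flox). Both groups carried the T-Cre transgene, known to act in early mesoderm, and the mT/mG reporter allele, so neither is free of Cre. Dissected tissue is named as epididymal ducts in the protocol and as Wolffian ducts elsewhere in the labels. Nothing in the labels ties a library to an embryo or a litter, and the p-values measure only the spread among these libraries. In bulk tissue, fewer cycling cells and less RNA of these genes per cell cannot be told apart.

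Total counts per library ranged from 24807970 to 29590547. Ptk7 itself was at 112.5 to 313.3 CPM (counts scaled to the total of each library) in the control libraries, at 7.33, 7.59 and 12.5 CPM in cKO-labelled libraries 1, 2 and 4, and at 194.3 CPM in cKO-labelled library 5. Library 5 thus goes against its label, and directions below are for the libraries labelled Ptk7 cKO, with the value without library 5 beside each named gene of the 45 for which it moved by over 1.5 times, and likewise for control 3 below. Control library 3 stands apart in another way: it held the highest level of the 8 libraries for 24.4% of all genes tested and the lowest for 26.6%, against 7.19% to 16.0% for every other library. Its mitochondrial share of counts was the highest, 3.47% against 1.82% to 2.64% elsewhere.

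The promoters of 4 genes are printed because these genes are among those of the highest level per kilobase of exon, 2 from each class, and the promoters carry sequence elements that the classes are known for. Each runs 5′ to 3′ on the gene's own strand and lies upstream of the RefSeq transcription start, on build GRCm38.p6. Capitals mark matches, on either strand, to the CCAAT box (CCAAT, or ATTGG when read from the other strand), to the cell cycle homology region CHR (TTTGAA) or to an E2F element (TTTCCCGC, TTTGGCGC, TTCCCGCC or TTTCGCGC, which can overlap each other). The Mcm6 promoter is chr1:128359706-128359955 on the minus strand, and that of Rrm1 is chr7:102441445-102441694 on the plus strand. The Ccnb2 promoter is chr9:70421555-70421804 on the minus strand, and that of Ube2c is chr2:164769679-164769897 on the plus strand, ending 31 bases before the start.
Mcm6: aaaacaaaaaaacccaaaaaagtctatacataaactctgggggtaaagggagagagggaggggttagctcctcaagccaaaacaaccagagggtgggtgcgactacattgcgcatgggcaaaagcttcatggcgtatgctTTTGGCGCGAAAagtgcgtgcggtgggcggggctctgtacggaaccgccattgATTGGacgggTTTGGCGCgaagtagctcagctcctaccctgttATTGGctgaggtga
Rrm1: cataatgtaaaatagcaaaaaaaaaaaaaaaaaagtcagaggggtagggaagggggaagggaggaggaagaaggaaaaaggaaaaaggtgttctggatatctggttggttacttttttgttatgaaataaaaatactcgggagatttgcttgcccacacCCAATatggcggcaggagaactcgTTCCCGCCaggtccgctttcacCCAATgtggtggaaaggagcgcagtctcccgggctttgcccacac
Ccnb2: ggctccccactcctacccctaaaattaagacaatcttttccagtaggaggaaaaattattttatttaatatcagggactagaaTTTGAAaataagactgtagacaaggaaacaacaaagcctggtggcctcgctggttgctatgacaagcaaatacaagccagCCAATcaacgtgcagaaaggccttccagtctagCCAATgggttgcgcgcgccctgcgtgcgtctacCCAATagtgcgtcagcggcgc
Ube2c: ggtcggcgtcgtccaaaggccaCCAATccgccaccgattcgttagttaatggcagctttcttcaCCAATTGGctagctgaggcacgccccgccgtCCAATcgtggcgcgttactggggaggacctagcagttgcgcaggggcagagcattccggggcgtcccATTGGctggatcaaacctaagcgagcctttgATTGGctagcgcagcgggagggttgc
The Mcm6 stretch holds 3 E2F and 2 CCAAT matches, and that of Rrm1 holds 1 E2F and 2 CCAAT matches, while neither holds a CHR match. The Ccnb2 stretch holds 1 CHR and 3 CCAAT matches, and the Ube2c stretch holds 6 CCAAT matches with no E2F match. The 250 bases before the Ube2c start also hold 1 CHR match that the printed stretch does not hold.

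RefSeq promoter entries were found for 37 of the 45 genes, 16 S-phase genes with 19 start sites and 21 mitotic genes with 22. In the 250 bases before the start, an E2F match was present at 42.1% of S-phase and 4.54% of mitotic starts, against 2.92% of all 32851 starts in the table. A CHR match was present at 10.5% of S-phase and 40.9% of mitotic starts, against 16.0% of all. A CCAAT match was present at 68.4% of S-phase and 90.9% of mitotic starts, against 33.9% of all. Some genes have several starts, so the starts are not independent, and a match of letters is not a measured binding site.

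Between the groups, none of the 45 genes changed past the threshold of the main test (edgeR's quasi-likelihood test with Benjamini-Hochberg adjustment over all genes tested, 0.05). The same test called 0% of all 16469 genes, and voom with quality weights also called 0%. DESeq2 called 1.13% of all genes and none of the 45. The smallest adjusted p among the 45 was 0.353 in edgeR, 0.167 in DESeq2 and 0.210 in voom, all for Hells, a chromatin remodeller of replicating DNA. At an unadjusted p under 0.05, edgeR found 0 of the 45 higher in the cKO-labelled libraries, against 3.5% of all genes, and 1 lower (Hells), against 4.87% of all genes. The groups' CPM values did not overlap for 0 of the 45 in the higher direction, against 2.65% of all genes, and for 1 in the lower direction (Ccnb1), against 3.11%.

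Fold changes of the 45 genes were small. On the log2 scale (cKO-labelled against control) they ran from -0.28 for Hells to 0.23 for E2f1, and 43 of 45 were within 0.2 of 0. Standard errors had a median of 0.090 and ran from 0.060 to 0.138. The approximate 95% interval included 0 for 44 of the 45 genes, and 44 of the intervals stayed within 0.5 of 0 on the log2 scale. The median was -0.058, against 0.0055 for all genes, and 37 of the 45 values were below 0, against 48.6% of all genes. The coefficient of variation over the 8 libraries had a median of 9.27% for the 45 genes, and of 9.43% for the 9463 tested genes of the same range of mean CPM.

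**Figure D1:**
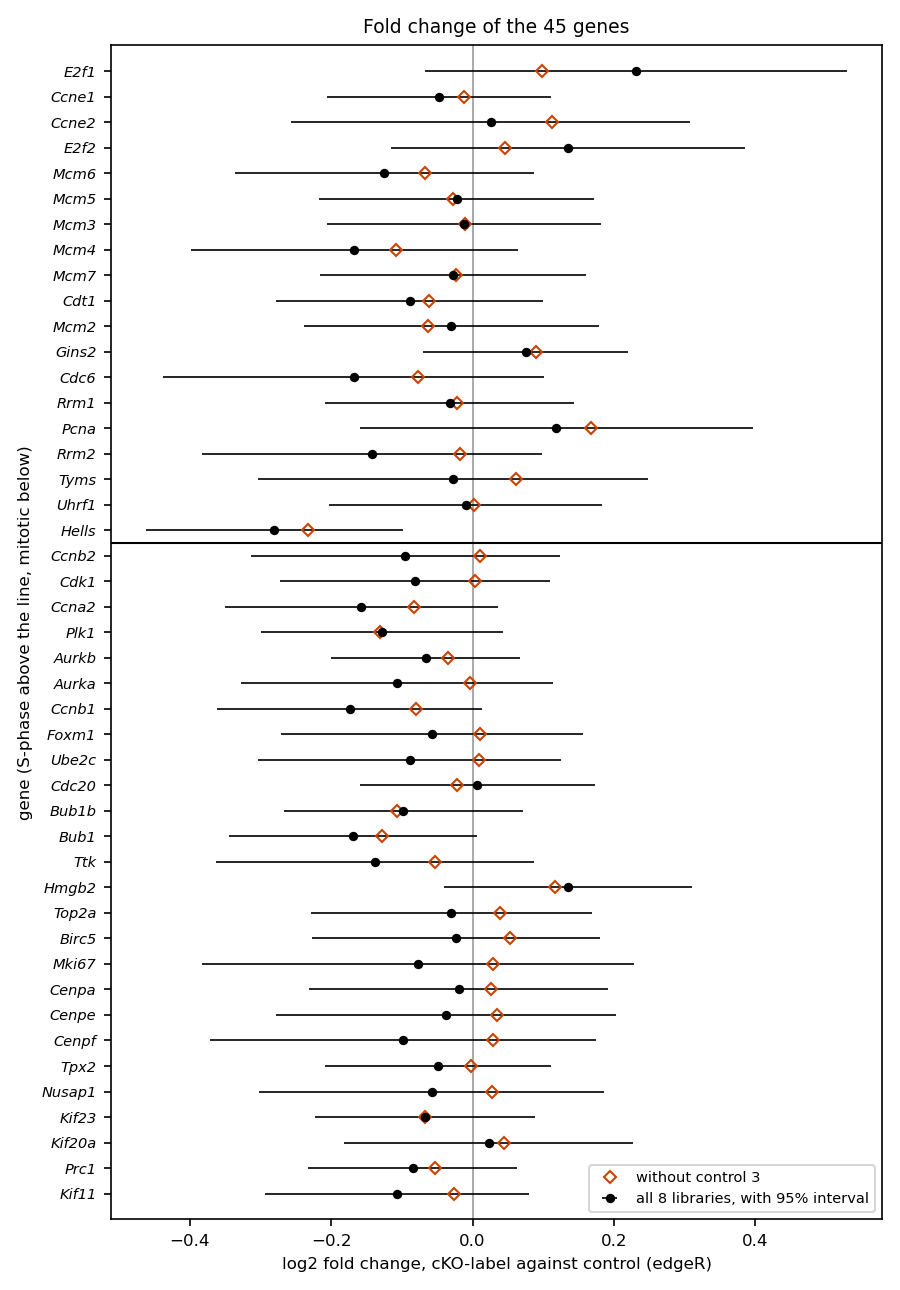
Log2 fold change of each of the 45 genes (x axis, cKO-labelled against control libraries, from edgeR), S-phase genes above the line and mitotic genes below it, in order of role and of level per kilobase. Black points with bars are the fit over 8 libraries with approximate 95% intervals, and open diamonds leave out control 3. All intervals but that of Hells include 0, and most mitotic diamonds lie nearer to 0 than the black points.

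The small median shift of the 26 mitotic genes rested on 1 library. Over all 8 libraries, 23 of 26 mitotic genes were below 0 with a median of -0.079, and 14 of 19 S-phase genes were below 0 with a median of -0.028. Without control 3, 13 of 26 mitotic genes were below 0 and the median was 0.00039, while 12 of 19 S-phase genes were below 0 with a median of -0.017. The S-phase median depended on another library: without cKO-labelled library 4 it was 0.036. In the fit without control 3, edgeR called 0% of 16665 genes, and an unadjusted p under 0.05 was found for 3.14% of them higher and 3.92% lower. It was found for 0 of the 45 genes higher and 1 lower (Hells). Without cKO-labelled library 5, which kept Ptk7, the medians were -0.081 for mitotic and -0.086 for S-phase genes. Of 16697 genes tested then, 3.74% were higher and 5% were lower at an unadjusted p under 0.05, against 1 of the 45 higher (Hmgb2) and 2 lower (Hells and Mcm4, the latter named after its value was seen). In that fit edgeR called 0.00599% of the genes, which is 1 gene, Ptk7, and none of the 45.

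**Figure D2:**
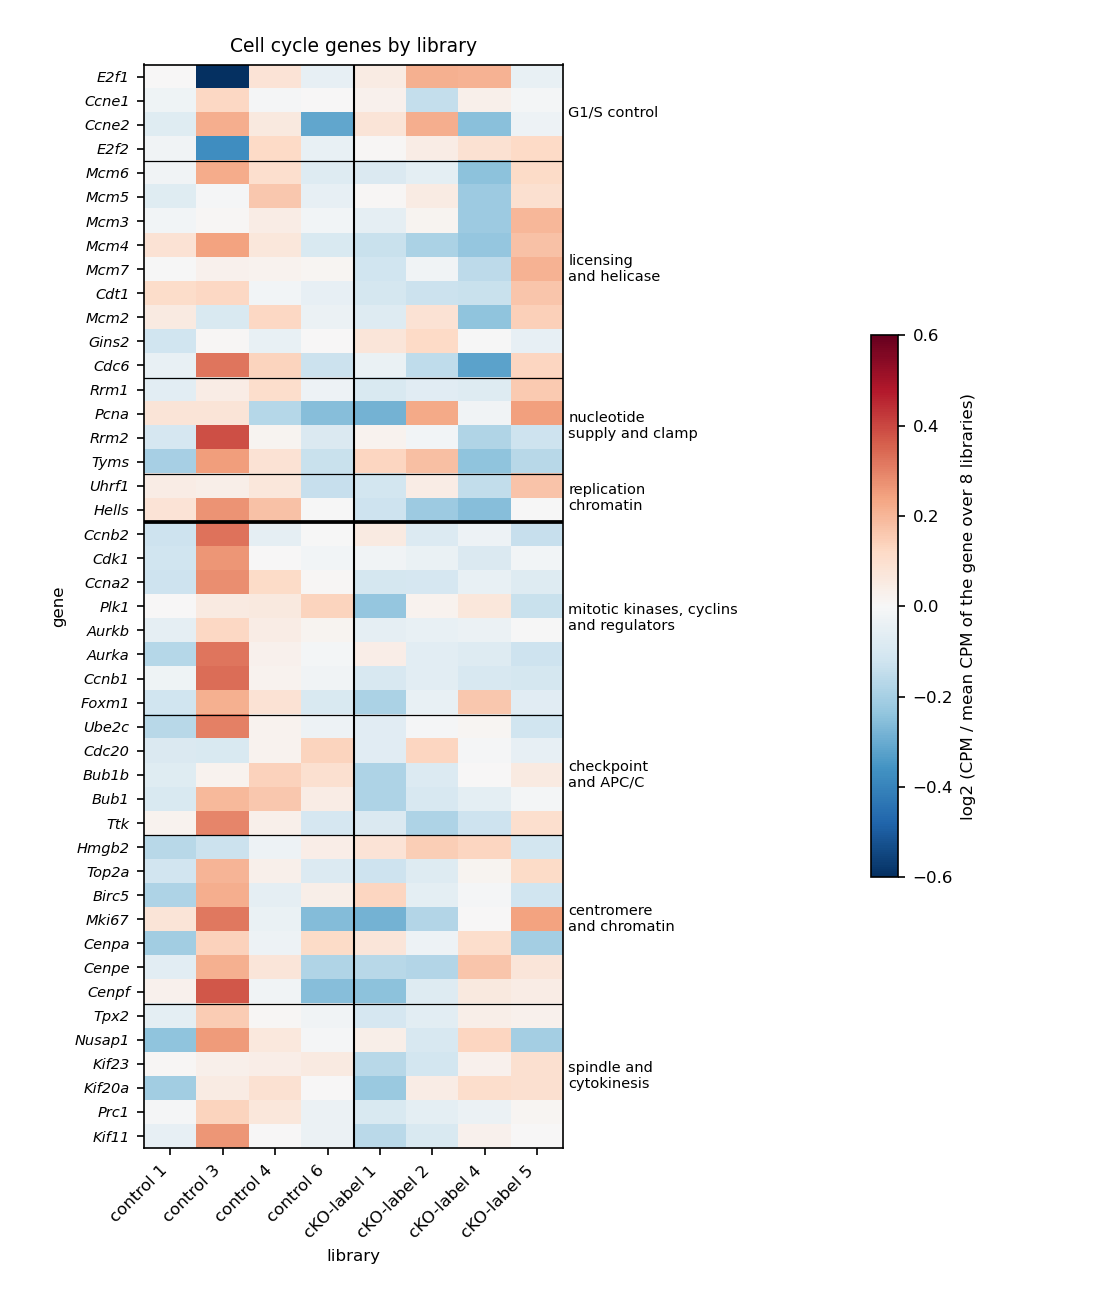
Level of each of the 45 genes (rows, grouped by role, S-phase above the thick line) in each of the 8 libraries (columns), as log2 of its CPM over the gene's mean CPM, with the colour scale ending at ±0.6. Control 3 holds the deepest red of most mitotic rows and the deepest blue of E2f1 and E2f2, and cKO-labelled library 4 is blue across the 6 Mcm rows.

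Genes of G1/S control come first in the cycle. E2f1, a transcription factor that drives S-phase genes, was at 72.2, 47.1, 76.2 and 69.7 CPM in control libraries 1, 3, 4 and 6 and at 74.5, 83.6, 83.4 and 69.8 CPM in cKO-labelled libraries 1, 2, 4 and 5. Control 3 was lowest and the groups overlapped. The means were 66.3 ± 13.1 and 77.8 ± 6.82 CPM (SD, n = 4), a log2 difference of 0.23 (SE 0.14, edgeR adjusted p = 0.692), or 0.10 without control 3. Its relative E2f2 also had its lowest level in control 3, 9.99 CPM against 12.5 to 14.0 CPM elsewhere. Ccne1, cyclin E1, which activates Cdk2 at the start of S phase, was at 43.8, 48.6, 44.4 and 44.6 CPM in the controls and at 45.4, 40.4, 45.6 and 44.3 CPM in the cKO-labelled libraries. Its log2 difference was -0.047 (SE 0.072), and -0.012 without control 3. Ccne2 ranged from 28.7 to 41.5 CPM, with both its lowest and its highest level in a control. Control 3 thus held the lowest level of E2f1 and E2f2 and the highest of both E-type cyclins. For Ccne2 control 3 (41.45 CPM) was hardly above cKO-labelled library 2 (41.4 CPM). E2f3, an activator of the same family outside the 45 genes, was highest in control 3.

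Origin licensing and the replicative helicase had 9 genes, 8 of them below 0 with and without control 3. Mcm6, a subunit of the MCM helicase, was at 281.4, 332.6, 305.6 and 270.2 CPM in control libraries 1, 3, 4 and 6. It was at 268.1, 274.2, 240.3 and 308.5 CPM in cKO-labelled libraries 1, 2, 4 and 5, so the groups overlapped (log2 difference -0.13, SE 0.096, edgeR adjusted p = 0.749). It was -0.067 without control 3 and -0.19 without library 5. Mcm5, another subunit, was at 174.0, 182.5, 205.2 and 176.9 CPM in the controls and at 184.4, 189.3, 157.7 and 195.7 CPM in the cKO-labelled libraries, a log2 difference of -0.023 (SE 0.088), or -0.059 without library 5. Mcm2 was at 166.0, 150.3, 174.7 and 156.3 CPM in the controls and at 151.7, 170.1, 135.4 and 176.8 CPM in the cKO-labelled libraries, a log2 difference of -0.030 (SE 0.094), or -0.064 without control 3 and -0.086 without library 5.

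The 6 MCM subunits shared their extreme libraries. All 6 had their lowest level of the 8 libraries in cKO-labelled library 4, and 3 of the 6 (Mcm2, Mcm3 and Mcm7) had their highest in library 5, the library that kept Ptk7. Mcm4, the subunit with the largest log2 difference, was at -0.17 (SE 0.10), or -0.11 without control 3. Without library 5 all 6 were further below 0, from -0.059 for Mcm5 to -0.27 for Mcm4, and the median of the 9 genes of the role went from -0.030 to -0.11. In that fit Mcm4 was the 1 gene of the role at an unadjusted p under 0.05, and none was called. The loading factors showed the same low library: Cdc6, which loads the helicase, was at 24.1 CPM in library 4 and at 27.1 to 37.6 CPM in the others. Its partner Cdt1 was at 47.75 CPM in library 4, hardly below the next library at 47.92 CPM. Gins2, a subunit that joins the helicase when it fires, was the 1 gene of the role above 0 (0.075, SE 0.066).

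Nucleotide supply and the sliding clamp had 4 genes. Rrm1, the large subunit of ribonucleotide reductase, was at 218.7, 235.2, 245.3 and 223.5 CPM in the controls and at 213.9, 217.6, 216.4 and 254.6 CPM in the cKO-labelled libraries. Libraries 1, 2 and 4 of the cKO label lay below all controls, and library 5 lay above all of them. The log2 difference was -0.032 (SE 0.080), and -0.095 without library 5. Pcna, the clamp that holds the polymerase on DNA, was at 138.0, 137.9, 116.3 and 109.7 CPM in the controls and at 107.6, 153.3, 129.0 and 155.0 CPM in the cKO-labelled libraries (log2 difference 0.12, SE 0.13, and 0.051 without library 5). The groups overlapped, with both the lowest and the highest level among the cKO-labelled libraries, and library 5 was again the highest. Rrm2, the small subunit, and Tyms, which makes thymidylate, were both highest in control 3 and lowest in cKO-labelled library 4.

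Of the replication chromatin genes, Hells had the largest difference of the 45. Hells (ENSMUSG00000025001, chr19:38930915-38971051, plus strand, GRCm38), an SNF2-family remodeller needed for DNA methylation, was at 61.5, 70.0, 65.6 and 58.0 CPM in the controls and at 53.3, 49.9, 48.8 and 58.0 CPM in the cKO-labelled libraries. Groups met at a single point, control 6 (57.99 CPM) and cKO-labelled library 5 (58.03 CPM). The means were 63.8 ± 5.20 and 52.5 ± 4.15 CPM (SD, n = 4), a log2 difference of -0.28 (SE 0.082, unadjusted p = 0.00609, edgeR adjusted p = 0.353). Over the 15 alternative settings its log2 difference ran from -0.33 to -0.23, with an unadjusted p of 0.0034 to 0.022 and an adjusted p of 0.167 to 0.639. Uhrf1, which recruits the maintenance methyltransferase to new DNA, was at 125.3, 124.5, 127.0 and 110.1 CPM in the controls and at 112.5, 125.3, 109.4 and 136.6 CPM in the cKO-labelled libraries. The log2 difference of Uhrf1 was -0.0096 (SE 0.087), or 0.0016 without control 3 and -0.073 without library 5, and it too was highest in library 5 and lowest in library 4.

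Mitotic kinases, cyclins and their regulators had 8 genes, of which all 8 were below 0 over the 8 libraries and 5 were below 0 without control 3. Ccnb1, cyclin B1, the partner of Cdk1 at entry into mitosis, was at 64.9, 83.2, 66.9 and 65.0 CPM in the controls and at 61.9, 63.2, 61.7 and 61.5 CPM in the cKO-labelled libraries. The groups did not overlap, but the gap between the nearest libraries (63.2 and 64.9 CPM) was small beside that between control 3 and the other controls. The log2 difference of Ccnb1 was -0.17 (SE 0.085, edgeR adjusted p = 0.631), and -0.080 without control 3. Cdk1, the mitotic kinase, was at 164.8, 215.2, 179.2 and 176.9 CPM in the controls and at 176.4, 174.2, 168.5 and 176.9 CPM in the cKO-labelled libraries, a log2 difference of -0.081 (SE 0.087). Without control 3 that of Cdk1 was 0.0032. Ccnb2, the gene with the most CPM per kilobase of exon among the 45 (67.4), was at 95.3, 130.1, 100 and 103.9 CPM in the controls and at 107.7, 98.25, 101.7 and 94.3 CPM in the cKO-labelled libraries. For Ccnb2 the log2 difference was -0.095 (SE 0.099), and 0.011 without control 3. Control 3 held the highest level of 7 of these 8 genes.

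The checkpoint and anaphase-promoting complex group had 5 genes, 4 of them below 0 with and without control 3. Ube2c, the ubiquitin-conjugating enzyme of that complex, was at 121.8, 168.4, 138.7 and 133.8 CPM in the controls and at 130.1, 135.8, 137.7 and 125.6 CPM in the cKO-labelled libraries. Its log2 difference was -0.089 (SE 0.097), and 0.0098 without control 3. Cdc20, the activator of the complex, did not share the high level in control 3: it was at 89.6, 89.2, 96.7 and 104.4 CPM in the controls, lowest in control 3, and at 90.9, 104.0, 94.6 and 92.1 CPM in the cKO-labelled libraries (log2 difference 0.0066, SE 0.075). Without control 3 that of Cdc20 was -0.022, and without library 5 it was 0.024. Bub1, a checkpoint kinase, had the smallest adjusted p of the mitotic genes, 0.618 in edgeR, at a log2 difference of -0.17 (SE 0.079), and -0.13 without control 3.

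Of the 7 genes of the centromere and mitotic chromatin, control 3 was highest for 6. Mki67, the antigen Ki-67 that coats mitotic chromosomes, was at 212.3, 250.4, 195.9 and 167.9 CPM in the controls and at 165.4, 178.4, 201.4 and 237.9 CPM in the cKO-labelled libraries. The spread within each group, 34.5 and 31.8 CPM (SD, n = 4), exceeded the gap of the means, 206.6 and 195.8 CPM. The log2 difference of Mki67 was -0.078 (SE 0.14), and it was 0.028 without control 3 and -0.19 without library 5, which held the second highest level. Top2a, which untangles sister chromatids, was at 277.5, 345.7, 306.2 and 283.5 CPM in the controls and at 275.5, 284.2, 303.1 and 325.0 CPM in the cKO-labelled libraries, a log2 difference of -0.030 (SE 0.090), or 0.039 without control 3 and -0.076 without library 5. Hmgb2, a DNA-bending protein counted with G2 genes in phase scoring, was at 94.2, 96.7, 103.7 and 108.7 CPM in the controls and at 111.9, 117.3, 115.8 and 97.9 CPM in the cKO-labelled libraries. Libraries 1, 2 and 4 of the cKO label lay above all controls for Hmgb2 and library 5 did not. Its log2 difference was 0.14 (SE 0.079, edgeR adjusted p = 0.692), and 0.19 without library 5. All 7 genes of this role were above 0 without control 3, with a median of 0.035, so the sign of the role's median (-0.030 over 8 libraries) depends on that library.

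The spindle and cytokinesis genes numbered 6. Tpx2, which activates Aurora A on the spindle, was at 155.5, 179.9, 162.7 and 159.6 CPM in the controls and at 150.9, 154.7, 165.6 and 164.7 CPM in the cKO-labelled libraries (log2 difference -0.049, SE 0.072, and -0.0025 without control 3). Nusap1, which bundles spindle microtubules, was at 112.8, 159.2, 139.2 and 132.7 CPM in the controls and at 136.4, 124.8, 145.6 and 115.7 CPM in the cKO-labelled libraries (log2 difference -0.058, SE 0.11, with 0.027 without control 3 and -0.0045 without library 5). The groups overlapped for both. Library 1 of the cKO label held the lowest level of 5 of the 6 genes, among them the motors Kif11, Kif20a and Kif23.

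**Figure D3:**
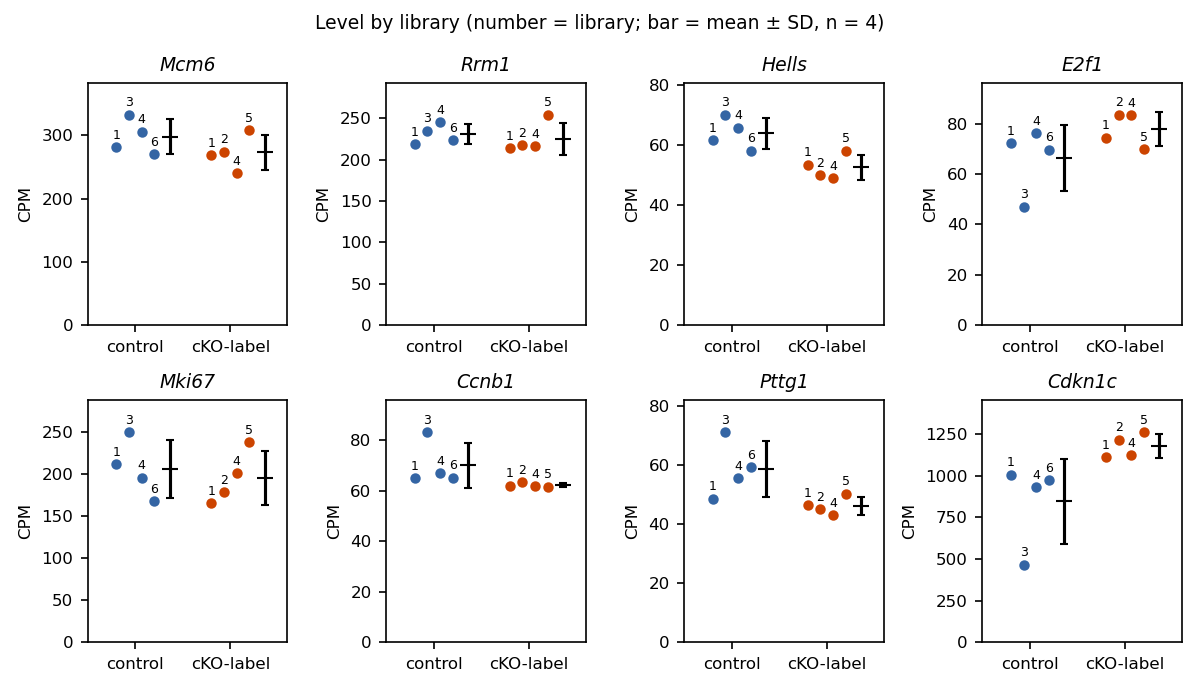
CPM of 8 genes (y axis from 0) in each library, marked with its number, with the mean ± SD of 4 libraries per group as black bars; Pttg1 and Cdkn1c are not among the 45 genes. Hells and Pttg1 are lower in most cKO-labelled libraries, and the groups overlap slightly for both. Control 3 alone is far from its group for E2f1, Ccnb1 and Cdkn1c.

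Levels per kilobase of exon, averaged over the 8 libraries, ordered the genes from Ccnb2 at 67.4 CPM per kilobase, Mcm6 at 61.1, Rrm1 at 57.1, Pcna at 54.5 and Mcm5 at 53.5 down to Cenpf at 4.99 and E2f2 at 2.65. With a coefficient of variation of 6.64% to 14.1% for the top 5, neighbours in that order were not separated by more than their spread over libraries.

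S-phase and mitotic genes were compared within each library by a score, the mean over a list's genes of log2 CPM centred on each gene's mean over the 8 libraries. In the order of control libraries 1, 3, 4 and 6, the S-phase score was -0.0080, 0.075, 0.066 and -0.071, and in cKO-labelled libraries 1, 2, 4 and 5 it was -0.037, 0.018, -0.13 and 0.086. In the same order the mitotic score was -0.083, 0.19, 0.039 and -0.013 in the controls and -0.088, -0.051, 0.023 and -0.018 in the cKO-labelled libraries. The highest mitotic score, that of control 3, corresponds to 114.3% of the mean level, and the other 7 libraries lay between 94.1% and 102.7%. For the S-phase score the extremes were both cKO-labelled, library 5 at the top and library 4 at the bottom.

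The S-phase minus mitotic score, which compares the phases within a library, was 0.075, -0.12, 0.027 and -0.058 in the controls and 0.052, 0.070, -0.15 and 0.10 in the cKO-labelled libraries. Control 3 and cKO-labelled library 4 were the lowest of their groups, the first through a high mitotic score and the second through a low S-phase score. The group means were -0.018 ± 0.086 and 0.018 ± 0.12 (SD, n = 4), so the difference of 0.036 was smaller than the spread in either group. Without control 3 that difference was 0.0032, without cKO-labelled library 5 it was 0.0079, and without both it was -0.025. It was larger without control 1 (0.068) and without cKO-labelled library 4 (0.093). In the last of these it exceeded the SD of either group (0.086 and 0.027). With only the 13 S-phase and 19 mitotic genes that standard phase-scoring lists hold, it was -0.0034. Because the 45 genes share libraries, no p-value was computed for a score.

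**Figure D4:**
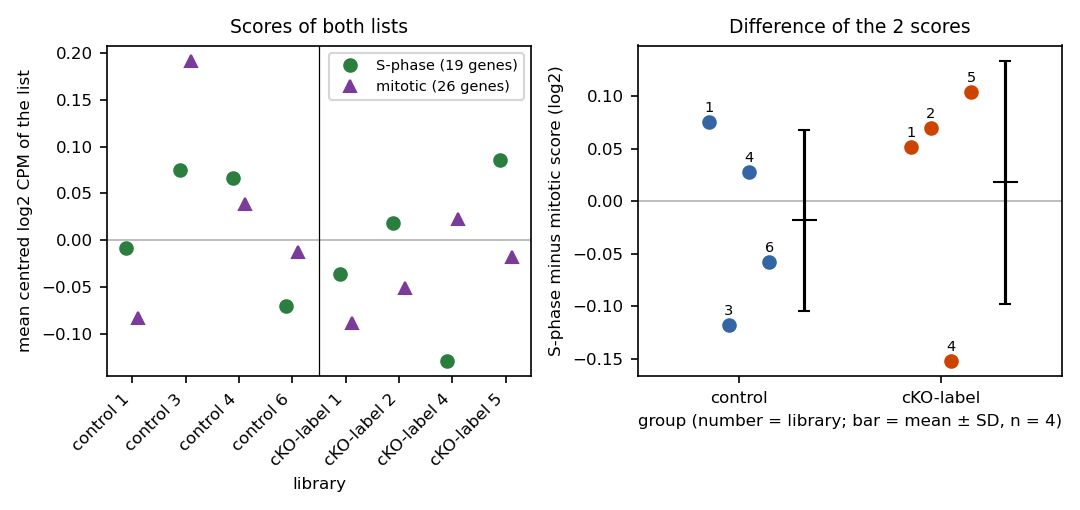
Left, S-phase score (circles, 19 genes) and mitotic score (triangles, 26 genes) of each library on the log2 scale; right, their difference by group, with library numbers and the mean ± SD of 4 libraries. The mitotic score of control 3 (0.19) is the highest, the S-phase score of cKO-labelled library 4 (-0.13) is the lowest, and the group means of the difference lie within 1 SD of each other.

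Which library held the extreme level was uneven across the genes. Control 3 was highest for 20 of 26 mitotic genes (76.9%), against 24.4% of all genes tested, and for 8 of 19 S-phase genes. Library 1 of the cKO label was lowest for 12 of the 26 mitotic genes (46.1%, against 11.4% of all genes), and control 1 was lowest for 8. Library 4 of that label was lowest for 12 of the 19 S-phase genes (63.2%, against 14.9% of all genes) and for none of the mitotic genes. Library 5 of that label was highest for 8 of the 19 S-phase genes (42.1%, against 13.03%) and for 1 mitotic gene. The 2 classes therefore had different extreme libraries, except for control 3.

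**Figure D5:**
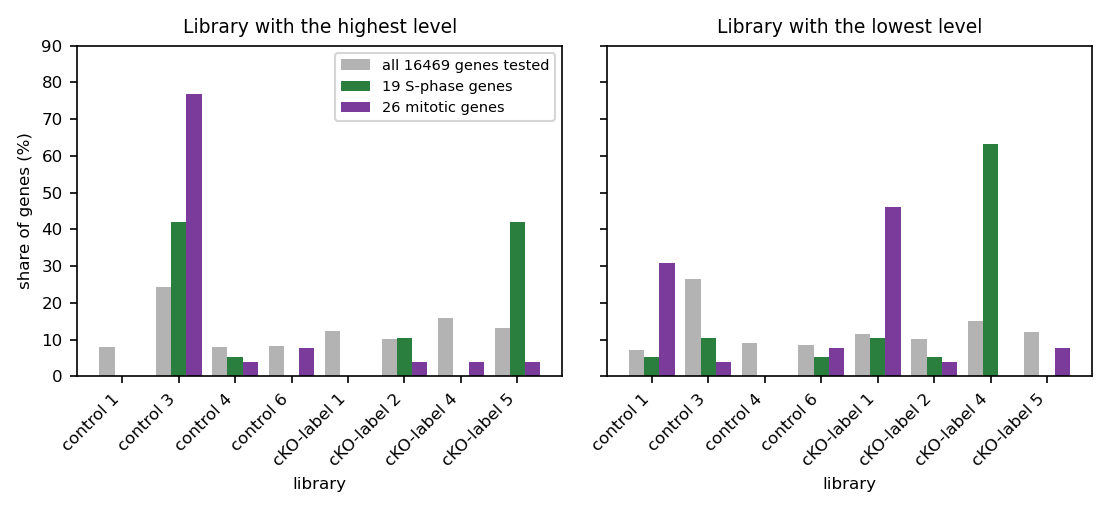
Share of genes (y axis, percent) for which each library held the highest (left) or the lowest level (right) of the 8, for all 16469 genes tested (grey), 19 S-phase genes (green) and 26 mitotic genes (purple). Control 3 takes 76.9% of the mitotic maxima and cKO-labelled library 4 takes 63.2% of the S-phase minima.

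Genes of the same pathways outside the 45 were examined in lists that had been drawn up with earlier results known. Of 58 other replication genes, none passed the edgeR threshold. At an unadjusted p under 0.05, 0 were higher and 5 were lower (background 3.5% and 4.87%). Without control 3, 0 were higher and 4 were lower (background 3.14% and 3.92%). Of the 58, 49 were below 0, or 45 without control 3, against 48.6% of all genes in either fit. The median was -0.071, or -0.039 without control 3. The 5 lower genes over all 8 libraries were Mcm10, a factor of helicase firing, Atad2, a bromodomain co-factor of E2F genes, the nuclease Exo1, the clamp-loader subunit Rfc3 and Cdca7, a partner of Hells that was named after its value was seen. Mcm10 was at 25.1, 28.2, 26.9 and 20.8 CPM in the controls and at 19.9, 20.8, 16.3 and 21.6 CPM in the cKO-labelled libraries (log2 difference -0.36, SE 0.12, edgeR adjusted p = 0.404), so the groups overlapped. For the others the log2 difference was -0.25 (Atad2), -0.25 (Exo1), -0.18 (Rfc3) and -0.22 (Cdca7). Library 4 of the cKO label was lowest for 30 of the 58 and control 3 highest for 33.

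Of 73 other mitosis genes, 1 was higher and 2 were lower at an unadjusted p under 0.05 (background 3.5% and 4.87%), or 0 and 1 without control 3. None passed the threshold, and the median was -0.083, or -0.027 without control 3. Of the 73, 60 were below 0, or 51 without control 3, against 48.6% of all genes in either fit. Pttg1, securin, which holds separase inactive until anaphase, was at 48.7, 71.3, 55.7 and 59.3 CPM in the controls and at 46.4, 45.2, 43.1 and 50.3 CPM in the cKO-labelled libraries. Control 1 lay within the cKO-labelled range. For Pttg1 the log2 difference was -0.35 (SE 0.11, edgeR adjusted p = 0.384), and -0.24 without control 3. Melk, a kinase of dividing cells, had a log2 difference of -0.17 (SE 0.072), and its groups did not overlap. Kifc1, a minus-end spindle motor, was the 1 higher gene (0.23, SE 0.092), and Cdca2, a chromatin phosphatase subunit, was at -0.19 (SE 0.085). Control 3 was highest for 49 of the 73.

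A list of 30 genes held D-type cyclins, genes of the E2F, RB and DREAM families, and Myc. Of these 30, 1 was higher and 5 were lower at an unadjusted p under 0.05 (background 3.5% and 4.87%), and none passed the threshold. Without control 3 the lower count was 2, E2f3 and Rbl1. Ccnd3, cyclin D3, was at 425.6, 403.9, 443.6 and 453.3 CPM in the controls and at 481.3, 484.7, 479.2 and 495.1 CPM in the cKO-labelled libraries, without overlap (log2 difference 0.17, SE 0.067, edgeR adjusted p = 0.515). Ccnd1, cyclin D1, overlapped between the groups, at 198.7 to 252.0 CPM and 194.9 to 243.5 CPM, and Ccnd2 did so at 466.0 to 495.9 CPM and 418.2 to 505.6 CPM. E2f3, an activator of the same family as E2f1, was at 31.7, 33.9, 33.0 and 30.4 CPM in the controls and at 26.1, 27.1, 26.5 and 29.7 CPM in the cKO-labelled libraries, without overlap (log2 difference -0.24, SE 0.076, edgeR adjusted p = 0.387). The repressor E2f7 was at -0.28 (SE 0.11) and Rbl1, the pocket protein p107, at -0.22 (SE 0.076). The remaining 2 lower genes, Lin54 (-0.23) and Myc (-0.27), were named after their values were seen.

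Of 20 genes for CDK inhibitors and cell cycle exit, 18 were tested, 3 were higher and 0 lower at an unadjusted p under 0.05 (background 3.5% and 4.87%), and none passed the threshold. Without control 3, 4 were higher and 0 lower. Their median was 0.14, or 0.093 without control 3. Cdkn1c, the inhibitor p57, was at 1007, 467.2, 933.0 and 974.6 CPM in the controls and at 1112, 1216, 1125 and 1263 CPM in the cKO-labelled libraries. The groups did not overlap, and control 3 was far below the other 7 libraries. The log2 difference was 0.48 (SE 0.20, edgeR adjusted p = 0.547), and 0.28 without control 3. Hes1, a Notch target, was at 25.96, 27.9, 26.5 and 24.5 CPM in the controls and at 32.5, 32.1, 28.7 and 28.5 CPM in the cKO-labelled libraries (log2 difference 0.22, SE 0.081, edgeR adjusted p = 0.497). Mxd4, an antagonist of Myc, was at 0.20 (SE 0.078), and Gadd45g, a stress-induced inhibitor, at 0.36 (SE 0.17). Cdkn1a, the inhibitor p21, was at -0.15 (SE 0.10) and Cdkn1b, the inhibitor p27, at -0.018 (SE 0.083).

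Of 18 p53 target genes, 2 of them (Cdkn1a and Ccng1) also in the list of inhibitors, 0 were higher and 1 was lower at an unadjusted p under 0.05 (background 3.5% and 4.87%), or 1 and 1 without control 3, and none passed the threshold. The lower gene was Sesn2, a stress-responsive regulator of growth signalling, at 25.6, 22.5, 23.4 and 19.5 CPM in the controls and at 19.7, 19.4, 13.5 and 16.4 CPM in the cKO-labelled libraries (log2 difference -0.40, SE 0.13, edgeR adjusted p = 0.420). Bbc3, the pro-apoptotic protein PUMA, was at 2.70 CPM in control 3 and at 10.6 to 15.2 CPM in the other 7 libraries, so its log2 difference of 0.57 (SE 0.35) was 0.27 without control 3. Trp53inp1, an autophagy factor, and Perp, a junction protein, were at -0.20 (SE 0.11) and -0.39 (SE 0.18).

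Markers of cell types also differed between the libraries and between the groups, and their part in the results was not tested. Counts below are at an unadjusted p under 0.05 in edgeR (background 3.5% higher and 4.87% lower). At an adjusted p under 0.05, edgeR and voom called none of the markers. The DESeq2 calls given below stand beside 1.13% of all genes called by DESeq2. The 14 duct epithelium markers were present in every library, at a summed level of 1188 to 1365 CPM in the controls and 1038 to 1431 CPM in the cKO-labelled libraries. Gene by gene, 11 of the 14 were below 0, with a median log2 difference of -0.23 that was -0.23 without control 3 and -0.22 without library 5, and 7 were lower and 1 was higher. DESeq2 called 3 of them lower: Lhx1, a transcription factor of the duct (log2 difference -0.67, adjusted p = 0.0012), the epithelial splicing factor Esrp1 (-0.56, adjusted p = 0.0154) and E-cadherin, Cdh1 (-0.52, adjusted p = 0.0496). The lowest sum was in cKO-labelled library 4, which also had the lowest S-phase score.

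All 8 smooth muscle markers were tested, with sums of 3644 to 4357 CPM and 2884 to 3651 CPM, lowest in cKO-labelled library 4, and 4 were lower and 1 higher. The 7 mesothelium markers, of which Krt19 is also a duct marker, had sums of 530.9 to 634.8 CPM and 670.0 to 877.0 CPM, without overlap. Of these 4 were higher, Krt19 among them, and 0 lower, and DESeq2 called Wt1 and Myrf higher. Msln and Gpm6a were below 0, with a log2 difference of -0.12 for each, or -0.46 and -0.23 without library 5. All 10 mesenchyme markers were tested, with sums of 16646 to 21529 CPM and 18662 to 24069 CPM, lowest in control 3 and highest in library 5. At an unadjusted p under 0.05, 0 were higher and 1 was lower. Col1a1, Col1a2 and Col3a1, with means of 4671, 5033 and 5628 CPM, weighed most in these sums. They were lowest in control 3, as were Lum and Twist1, but Pdgfra (883.8 CPM) and Pdgfrb (169.7 CPM) were highest there. Of 10 erythroid markers, 7 were tested, with sums of 794.5 to 2268 CPM and 1362 to 3966 CPM, highest in library 5, and 2 were higher and 0 lower. Their median log2 difference was 0.77, but 0.068 without library 5, with 1 higher and 0 lower then. Over all 8 libraries DESeq2 called 1 erythroid marker, Hba-a2, a near-identical copy of Hba-a1 whose reads may be split between the copies.

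All 8 macrophage markers were tested, with sums of 156.7 to 258.6 CPM and 211.1 to 301.0 CPM, lowest in control 3 and highest in library 5, and 0 were higher and 0 lower. The 7 endothelium markers had sums of 384.8 to 436.1 CPM and 346.2 to 486.1 CPM, with 0 higher and 0 lower. Of 9 neuron and Schwann cell markers, 7 were tested, with sums of 74.1 to 95.04 CPM and 90.5 to 134.6 CPM, and 3 were higher and 0 lower, of which DESeq2 called Hand2. Of 7 Leydig and adrenal markers, 2 were tested, with sums of 7.98 to 10.7 CPM and 3.85 to 8.33 CPM, and 0 were higher and 1 lower. Of 8 germ and Sertoli cell markers, 4 were tested, with sums of 13.8 to 22.8 CPM and 13.9 to 20.5 CPM and 0 higher and 0 lower, and the untested Dazl, Mael, Amh and Hsd17b3 had 0 to 9 counts in any library. No listed marker with a match was at 0 in all libraries.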

How the data were processed

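RNA of mouse Wolffian (epididymal) ducts was measured in 4 control libraries and 4 labelled Ptk7 cKO. Per the labels' protocols, a column kit, a TruSeq RNA kit and a HiSeq instrument were used. Per the submitters' processing notes, the tools were STAR and featureCounts on GRCm38. Their versions and strand setting, the handling of multi-mapping reads and the gene models' release were not given in the sources used here. Reads from antisense overlaps may therefore be shared between genes. The authors deposited gene counts, not normalized, with exon lengths.

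Symbols were matched for 46005 of 46517 genes by Ensembl identifier. The test used edgeR 4.0.16 in R 4.3.3, with filterByExpr and TMM factors, on group over 8 libraries with Benjamini-Hochberg adjustment. The biological coefficient of variation was 15.2%. CPM values carry the TMM factors, scores used a prior count of 2, and the SE (size of the fold change over the square root of F) and its interval are approximate. The procedure was tested on simulated data. Alternatives were DESeq2 1.42.0, voom in limma 3.58.1, other scaling and filters, libraries left out, and a block on shared numbers. Motifs were searched in RefSeq promoters of GRCm38.p6.

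The 45 genes, the other lists and the naming rule were chosen with earlier results of these data known. The rule named genes with an unadjusted p under 0.05, the 2 of highest CPM per kilobase in each role, 6 widely used markers (Mki67, Top2a, Pcna, Mcm2, Ccnb1 and Cdk1), and in each other list up to 4 genes of smallest p and fixed cyclins and inhibitors. Other genes appear in ranges, counts and order, or as examples.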

Additional observations from a re-analysis of the deposited data

Results flagged for a closer look

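By chance about 1 in 20 groups of 4 libraries would hold a single library far from the other 3. Of the 92 groups examined, 6 held such a library. The groups share the same libraries and are not independent, so this count is no test against that share. Ptk7 was not among the groups examined, though cKO-labelled library 5 (194.3 CPM) lay far from libraries 1, 2 and 4 (7.33 to 12.5 CPM). Control 3 was such a library for Ccnb1, at 83.2 CPM against 64.9 to 66.9 CPM in the other controls, and for Cdkn1c, at 467.2 CPM against 933 to 1007 CPM. The other controls that lay apart were control 6 for Uhrf1, at 110.1 CPM against 124.5 to 127 CPM, and control 1 for Ccnd2, at 466 CPM against 491.9 to 495.9 CPM. Among the cKO-labelled libraries, library 5 lay apart for Rrm1, at 254.6 CPM against 213.9 to 217.6 CPM, and library 2 for Cdkn1b, at 51.7 CPM against 41.6 to 42.9 CPM.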

How the results depend on the processing

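None of the 45 genes was called under any of the 15 alternatives to the edgeR test. Leaving out 1 library at a time, 0 to 1 of the 45 were higher and 1 to 3 were lower at an unadjusted p under 0.05, with 3 (Hells, Bub1 and Ccna2) without control 1. Without control 3 and cKO-labelled library 5 together, 1 was higher (Hmgb2) and 2 were lower (Hells and Mcm4). The median of the S-phase genes ran from -0.086 to 0.036 and that of the mitotic genes from -0.105 to 0.00039 with 1 library left out. Each turned above 0 without 1 library, cKO-labelled library 4 for S-phase and control 3 for mitotic genes. The S-phase minus mitotic difference ran from 0.0032 to 0.0933.

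Numbers 1 and 4 are shared by titles of both groups, and nothing says that they pair libraries. Deviations of same-numbered libraries from their group means correlated at -0.092 and 0.023 over 16469 genes. A replicate block over these 4 libraries left 1 residual degree of freedom. Under that block 3 of the 45 were lower (Hells, Mcm2 and Mcm4), the S-phase median was -0.144, and the S-phase minus mitotic difference was -0.102. That fit also left out the other libraries of both groups, so the block and the smaller set of libraries cannot be told apart here. Against the main fit, the sign turned for Pcna (-0.10), Ccne1 (0.05), Cdk1 (0.01), Ccnb2 (0.10), Nusap1 (0.17), Cdc20 (-0.0046) and Ube2c (0.04). Of these, Cdk1, Ccnb2, Nusap1, Cdc20 and Ube2c also turned sign without control 3 alone, and the cause was not tested.

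Of 645 alternative values for 43 named genes, 38 turned sign, in 13 genes, all with small log2 differences. Voom gave 0.0001 for Ccnb2, 0.01 for Nusap1 and 0.0022 for Cdkn1b. Without control 3 and library 5 the values were 0.0005 for Cdk1, 0.05 for Ccnb2, 0.09 for Nusap1, -0.0003 for Cdc20, 0.04 for Ube2c and 0.02 for Cdkn1b. With 1 library left out, the ranges were -0.09 to 0.04 for Mcm2, -0.06 to 0.04 for Mcm5, -0.07 to 0.04 for Uhrf1, -0.19 to 0.03 for Mki67, -0.08 to 0.04 for Top2a, -0.13 to 0.0032 for Cdk1, -0.15 to 0.01 for Ccnb2, -0.14 to 0.03 for Nusap1, -0.04 to 0.06 for Cdc20, -0.15 to 0.01 for Ube2c and -0.10 to 0.02 for Cdkn1b. E2f2, at 9.99 to 14.0 CPM, had the lowest level of the 45 and so the largest counting error.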
